A study of Homo sapiens with 15 samples.

Results

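The HIF2α peaks of 786-O cells before and after BMAL1 knockdown were compared as sets of genomic intervals: 1204 peaks called in cells expressing shControl and 1089 called in cells expressing shBMAL1, together 2293 of the 4873 peaks in the 4 lists of the series. A shControl peak was counted as retained when it shared at least 1 bp with a shBMAL1 HIF2α peak and as lost otherwise, and a shBMAL1 peak with no overlapping shControl peak was counted as gained. The 786-O line is a renal cell adenocarcinoma line, and both lines compared here were made by lentiviral delivery of PLKO.1 shRNA constructs followed by puromycin selection, so that the shControl cells also carry a construct and the resistance marker. HIF2α was profiled by CUT&RUN, in which a nuclease is tethered to the antibody and releases the bound DNA fragments, in 3 libraries per line that the labels number as biological replicates and the study's reporting summary calls technical. One HIF2α list was deposited per line, made from its 3 libraries together, so no value here has an error between libraries and no p-value is given. BMAL1 lists (1812 peaks from 3 libraries of shControl cells, 768 from 2 libraries of shBMAL1 cells) were used only to mark overlaps. They differ in libraries as well as in knockdown, and the effects of the 2 on the overlaps cannot be told apart. The 4 IgG libraries were not analysed here.

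HIF2α, encoded by EPAS1, pairs with ARNT and binds the hypoxia response element (HRE), whose core reads ACGTG or GCGTG. In clear cell renal carcinoma the ubiquitin ligase subunit VHL is usually lost, HIF2α is no longer degraded in the presence of oxygen, and it drives growth factor, glucose metabolism and angiogenic genes. BMAL1 belongs to the same bHLH-PAS family as ARNT and with CLOCK binds the E-box CACGTG, which contains an HRE core, so the comparison asks which HIF2α sites are still called when BMAL1 is depleted.

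The sites below show what the HRE core looked like in each class. In each class and place (promoter or distal, defined further on) they are taken from the 3 highest-ranking peaks that had a core within 200 bp centred on the summit. Peaks in the bodies of EPAS1 and ARNT or overlapping a BMAL1 peak in both lines were passed over, a choice made after the values were seen, as were those of 1 chromosome whose sequence is not given here. Each run of 29 bases is written 5′ to 3′ on the strand that carries the core nearest to the summit, with the core in capitals, the nearest protein-coding gene as its name, and hg19 coordinates (GRCh37 sequence).
SEMA4B, retained, promoter, rank 30, chr15:90709144-90709172, - strand: gcaggggtgcatGCGTGaaggcttggggg
ALDOA, retained, promoter, rank 39, chr16:30076871-30076899, - strand: cacccccctcggACGTGactcggaccaca
ECE1, retained, promoter, rank 42, chr1:21565091-21565119, + strand: atgagaactgagACGTGcctgactccaca
TGFA, retained, distal, rank 28, chr2:70823942-70823970, - strand: agcagagtggagACGTGctggaattcaga
ENSG00000285082, retained, distal, rank 32, chr9:121094102-121094130, + strand: ctcaacctgcctACGTGacagtccgtcct
STX16, retained, distal, rank 34, chr20:57240877-57240905, + strand: ctagtccttccaGCGTGgtcattgcctaa
In 4 of the 6 retained sites the core nearest to the summit began with A, and those 4 lay 28 to 84 bp from the summit.

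The lost sites are shown the same way, followed by the VEGFA promoter, a locus that the study displays.
PTP4A1, lost, promoter, rank 253, chr6:64282381-64282409, + strand: gggcgcctcggcGCGTGtattggctcctt
EXOSC5, lost, promoter, rank 264, chr19:41903337-41903365, + strand: ctgggcgtccgcACGTGgcttagcgttta
ITGB1, lost, promoter, rank 285, chr10:33269580-33269608, - strand: ggtgcacagagcACGTGactcattgtgat
GABRR1, lost, distal, rank 135, chr6:89978732-89978760, - strand: tcccagatggacACGTGctgtacagcatg
BMPER, lost, distal, rank 202, chr7:33762244-33762272, - strand: ggaatgagggggACGTGccggctgagcgc
TSHB, lost, distal, rank 224, chr1:115599289-115599317, - strand: atggaatgtgcaACGTGctcggaaagcac
VEGFA, lost, promoter, rank 416, chr6:43737457-43737485, + strand: gagtgagtgtgtGCGTGtggggttgaggg
In 5 of these 6 ranked lost sites the core began with A, and the EXOSC5, ITGB1 and GABRR1 sites include a complete E-box.

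The gained sites come from the shBMAL1 list and are ranked within it.
C1GALT1, gained, promoter, rank 206, chr7:7222083-7222111, - strand: ggggatacggcgACGTGaggaagcgggga
HSPA2, gained, promoter, rank 221, chr14:65007104-65007132, - strand: ttgccctagccgACGTGcatcggattggc
TRIM5, gained, promoter, rank 303, chr11:5706348-5706376, - strand: tcaccaggccctACGTGgagaaatgccat
THRB, gained, distal, rank 108, chr3:24296272-24296300, - strand: taaaaatggtgtACGTGctggttatgttt
CD70, gained, distal, rank 177, chr19:6601836-6601864, - strand: ctaagggtgtgaGCGTGagacggtcatga
LYZL1, gained, distal, rank 193, chr10:29649550-29649578, + strand: caagcaggcggtACGTGacaggggctgca
In 5 of 6 the core began with A, at 5 to 84 bp from the summit.

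For 1 retained, 1 lost and 1 gained peak the whole 200-bp window around the summit is given on the plus strand, with every core in capitals on whichever strand it lay (a core on the minus strand reads CACGT or CACGC here).
TGFA, retained, intergenic, rank 28, chr2:70823884-70824083, + strand: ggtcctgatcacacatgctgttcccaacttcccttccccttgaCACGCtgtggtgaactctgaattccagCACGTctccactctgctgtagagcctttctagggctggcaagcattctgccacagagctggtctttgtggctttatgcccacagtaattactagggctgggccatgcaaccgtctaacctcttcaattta
VEGFA, lost, promoter, rank 416, chr6:43737444-43737643, + strand: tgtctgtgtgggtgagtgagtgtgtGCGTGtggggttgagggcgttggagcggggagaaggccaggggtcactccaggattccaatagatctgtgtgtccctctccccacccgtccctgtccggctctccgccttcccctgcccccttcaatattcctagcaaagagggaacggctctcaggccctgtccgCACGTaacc
THRB, gained, intron, rank 108, chr3:24296221-24296420, + strand: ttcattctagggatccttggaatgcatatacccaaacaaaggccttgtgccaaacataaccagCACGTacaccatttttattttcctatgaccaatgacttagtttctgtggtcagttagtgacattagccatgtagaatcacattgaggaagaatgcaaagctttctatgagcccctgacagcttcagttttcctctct
The TGFA and VEGFA windows each held 2 cores and the THRB window held 1.

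Of the 1204 shControl HIF2α peaks, 695 were retained (57.7%, 95% Wilson interval 54.9 to 60.5) and 509 were lost. Of the 1089 shBMAL1 peaks, 696 overlapped a shControl peak and 393 were gained (36.1%, 33.3 to 39.0). Retained peaks lay beside TGFA, ALDOA, LDHA, SLC2A1, EGLN3 and BHLHE40, lost peaks included those at the VEGFA and PDK1 promoters, and gained peaks included introns of THRB and CD70. These intervals cover counting error over peaks alone. A site that was not called may still hold signal too weak for its list. The smallest −log10 p was 8.83 in the shControl list and 8.92 in the shBMAL1 list. Both are stricter than the p-value threshold that the study states for its peak caller. Why the lists hold no weaker peak is not given in the sources used here.

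Retained peaks were the strong ones. Ranked by column 8 of the list (the −log10 p of the peak, rank 1 being the smallest p), retained peaks had a median rank of 387 (quartiles 179.5 to 684.5) and lost peaks 830 (619 to 1030). The median fold enrichment over the local background was 7.94 (6.10 to 10.3) for retained and 6.09 (5.16 to 7.30) for lost peaks, a difference of 0.38 in log2 medians. Gained peaks had a median rank of 764 of 1089 (565 to 938) and a median fold of 6.89 (5.58 to 8.13). Lost and gained peaks were also narrower, with median widths of 180 and 176 bp against 252 bp for retained peaks.

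In the first decile of the shControl list 118 of 121 peaks were retained (97.5%, 93.0 to 99.2), in the fifth 70 of 120 (58.3%) and in the last 30 of 121 (24.8%, 18.0 to 33.2). In the shBMAL1 list 1 of the first 109 peaks was gained (0.917%) and 70 of the last 109 (64.2%, 54.9 to 72.6). The first 250 shControl ranks contained 14 lost peaks, and the first 250 shBMAL1 ranks contained 13 gained ones. All 30 promoter peaks in the first decile of the shControl list and all 23 in the second were retained.

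**Figure D1:**
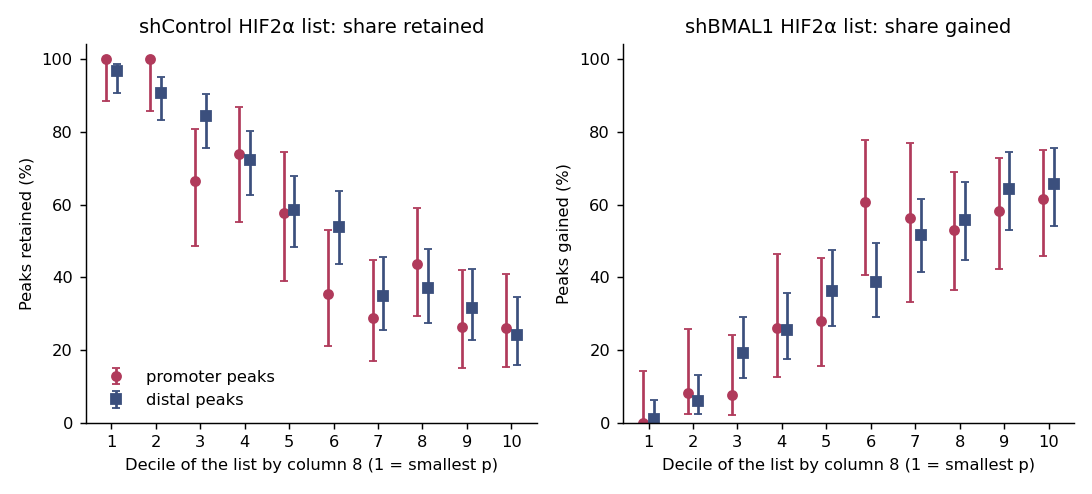
Share of shControl HIF2α peaks retained (left) and of shBMAL1 HIF2α peaks gained (right), in percent, by decile of the list ranked on column 8, for promoter (circles) and distal peaks (squares), with 95% Wilson intervals. Retention falls from 97.5% of all peaks in the first decile to 24.8% in the last, and the gained share climbs from 0.917% to 64.2%.

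The very first ranks were not typical of the rest. Peaks in the bodies of EPAS1 and ARNT, the genes of HIF2α and its partner, filled 23 of the first 50 ranks of the shControl list and 21 of the first 50 of the shBMAL1 list. EPAS1 had 11 shControl peaks, all retained, and ARNT had 14, of which 11 were retained. The first-ranked shControl peak, at chr2:46574010-46574274 on a coding exon of EPAS1, had a fold of 13.4 in shControl and 7.17 in shBMAL1 cells, where it ranked 3. Of all shControl HIF2α peaks, 58 lay where all 4 lists had a peak, 11 of them in the first 50 ranks. These 58 had a median fold of 4.87 and a median width of 166 bp, and 23 of 58 (39.7%, 28.1 to 52.5) had an HRE core, against 74.8% of retained peaks. The closing section gives some of the results without the EPAS1 and ARNT peaks, and without the peaks that overlapped BMAL1 in both lines.

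The 695 retained peaks kept much of their order. Spearman's rho between the ranks in both lists was 0.67 over all pairs, 0.71 over 168 promoter pairs and 0.65 over 527 distal pairs, as a description across peaks that share their libraries. Without the EPAS1, ARNT and 4-list peaks it was 0.61 over 615 pairs. The summits of a pair lay a median of 26 bp apart, and 523 pairs (75.3%) were within 50 bp. Some pairs moved far: the ANGPTL4 peak 1106 bp upstream of the start went from rank 122 to 1056, HK2 from 300 to 996 and CCN1 from 254 to 928, while the IRS1 peak went from 825 to 139, IRS2 from 896 to 229 and GAPDH from 685 to 182.

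**Figure D2:**
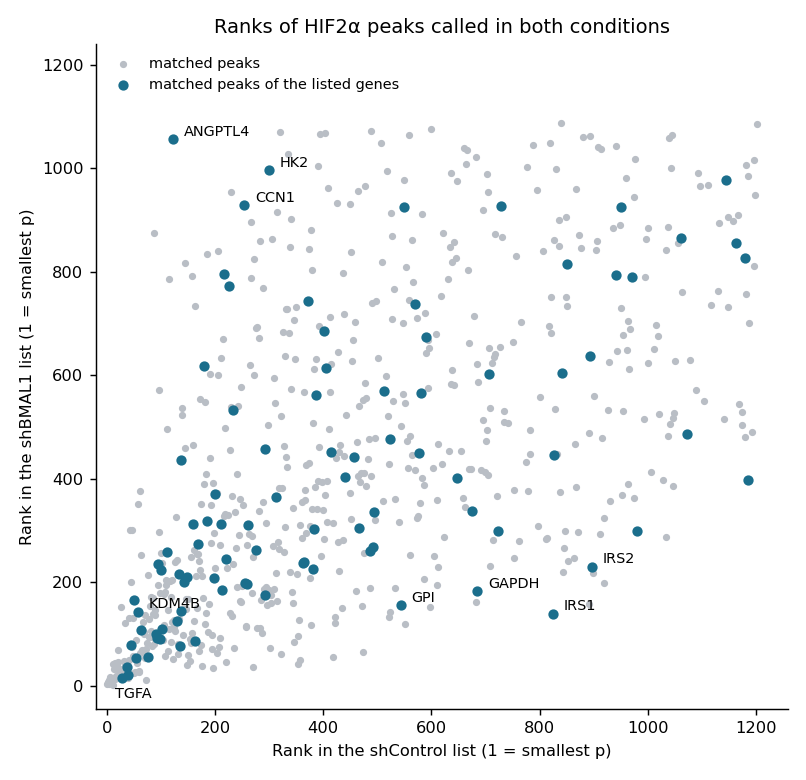
Rank in the shControl list (x axis) against rank in the shBMAL1 list (y axis) for the 695 HIF2α peaks called in both lines, with rank 1 the smallest p. Blue points are matched peaks of the listed genes other than EPAS1 and ARNT; ANGPTL4, HK2 and CCN1 sit high above the diagonal, and IRS1, IRS2, GPI and GAPDH far below it.

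Lost and gained peaks seldom had a close neighbour in the other list. Of the 509 lost peaks, 13 (2.55%) had a shBMAL1 HIF2α peak within 1000 bp and 55 (10.8%) within 10000 bp, and of the 393 gained peaks 6 (1.53%) and 47 (11.96%) had a shControl peak at those distances. CDCP1, which encodes a transmembrane protein of the cell surface, was one gene with such neighbours: both of its shControl peaks were lost (ranks 502 and 794), and 1 intronic peak was gained (rank 544) at chr3:45165413-45165571, beside the lost peak at chr3:45164709-45164888.

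Promoter peaks (those whose midpoint lay no more than 1000 bp before or 100 bp after an annotated start of any gene type) made up 324 of the shControl peaks (26.9%, 24.5 to 29.5) and 274 of the shBMAL1 peaks (25.2%, 22.7 to 27.8). Of the promoter peaks 168 of 324 were retained (51.9%, 46.4 to 57.2), and of the distal peaks 527 of 880 (59.9%, 56.6 to 63.1), a difference of -8.03 percentage points (95% Newcombe interval -14.3 to -1.73). Promoter peaks were weaker, with a median rank of 700 against 570.5, and within 5 groups of rank the difference was -2.66 points (-8.12 to 2.81). With promoters taken as 2500 bp to each side of a protein-coding start, it was -12.4 points (-18.7 to -5.95) before and -5.89 points (-11.5 to -0.276) within the groups of rank. Among peaks with a −log10 p of at least 20 in both lists the sign turned, to 2.14 points (-7.50 to 11.3). There the threshold was applied to each list before matching, so a peak whose partner fell below it counted as lost or gained. Introns (308 of 515, 59.8%) and intergenic sequence (163 of 275, 59.3%) retained peaks at rates that differed by 0.533 points (-6.55 to 7.74).

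The gained shares of promoter and distal peaks differed by less than their interval: 104 of 274 promoter peaks (38.0%) and 289 of 815 distal peaks (35.5%) of the shBMAL1 list were gained, a difference of 2.50 points (-3.98 to 9.19). Promoters held 26.5% of gained, 30.6% of lost and 24.2% of retained peaks. Many of these promoters belonged to non-coding transcripts or to starts inside a gene. No protein-coding start lay within 1000 bp of 65 of the 168 retained promoter peaks (38.7%, 31.7 to 46.2), against 37 of 156 lost ones (23.7%, 17.7 to 31.0) and 36 of 104 gained ones (34.6%, 26.2 to 44.2).

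The HRE core was more frequent in retained than in lost or gained peaks, and the difference lay in the core that begins with A. ACGTG was present within 200 bp centred on the summit, on either strand, in 435 of 695 retained (62.6%, 58.9 to 66.1), 229 of 509 lost (44.99%, 40.7 to 49.3) and 167 of 393 gained peaks (42.5%, 37.7 to 47.4), against 10.8%, 9.72% and 10.1% of the windows 2000 bp to either side. The retained share exceeded the lost share by 17.6 points (11.9 to 23.1), and gained minus retained was -20.1 points (-26.0 to -14.0). GCGTG was present in 32.4%, 34.2% and 29.5% of the same classes, and retained minus lost was -1.81 points (-7.22 to 3.54). With either core counted, the shares were 74.8%, 65.2% and 61.8%.

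The ACGTG difference was present at promoters (63.7% of retained, 44.2% of lost; 19.5 points, 8.61 to 29.7) and at distal sites (62.2% and 45.3%; 16.9 points, 10.2 to 23.4). These retained windows sit at shControl summits. At their shBMAL1 summits, ACGTG was in 93 of 170 retained promoter windows (54.7%) and 335 of 526 retained distal windows (63.7%). Lost and gained peaks differed by less than their interval, gained minus lost being -2.50 points (-8.96 to 4.03). Part of the difference went with strength. Averaged over 5 groups of rank it was 9.30 points (2.85 to 15.8), within a 100-bp window it was 8.95 points (3.73 to 14.0), and among peaks with a −log10 p of at least 20 in both lists it was 1.31 points (-6.48 to 9.23). In that strong set the gained share lay above the retained share, by 1.95 points (-7.73 to 10.96). Some lost or gained peaks of that set have a weaker partner in the other list. Of its shControl peaks 59.4% counted as retained, and 81.2% when matched to the full shBMAL1 list.

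By the base before the core, TACGTG was in 217 retained windows (31.2%, 27.9 to 34.8), 87 lost windows (17.1%, 14.1 to 20.6) and 84 gained windows (21.4%, 17.6 to 25.7), and GACGTG was in 22.2%, 16.3% and 14.0%. These shares include the ACGTG difference itself. Among peaks with ACGTG alone, TACGTG was in 49.9% of retained, 38.0% of lost and 50.3% of gained windows, so that lost peaks had the lowest share, retained minus lost being 11.9 points (3.94 to 19.5) and gained minus lost 12.3 points (2.42 to 21.9). GACGTG was in 35.4%, 36.2% and 32.9% of the same peaks. CACGTG was in 10.1%, 16.6% and 14.4% of them, retained minus lost being -6.48 points (-12.4 to -1.16) and gained minus lost -2.22 points (-9.23 to 5.24). The next shares are again over all windows. The E-box CACGTG, the form that BMAL1 with CLOCK also binds, was in 44 retained (6.33%, 4.75 to 8.39), 38 lost (7.47%, 5.49 to 10.1) and 24 gained windows (6.11%, 4.14 to 8.93), and retained minus lost was -1.13 points (-4.19 to 1.72). For shControl peaks with a −log10 p of at least 20 against the full shBMAL1 list, that difference was -6.33 points (-13.7 to -1.18), and in a 100-bp window it was 0.31 points (-1.90 to 2.34). In windows with a core, the nearest one lay a median of 37.5, 38 and 38.5 bp from the summit in the 3 classes.

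**Figure D3:**
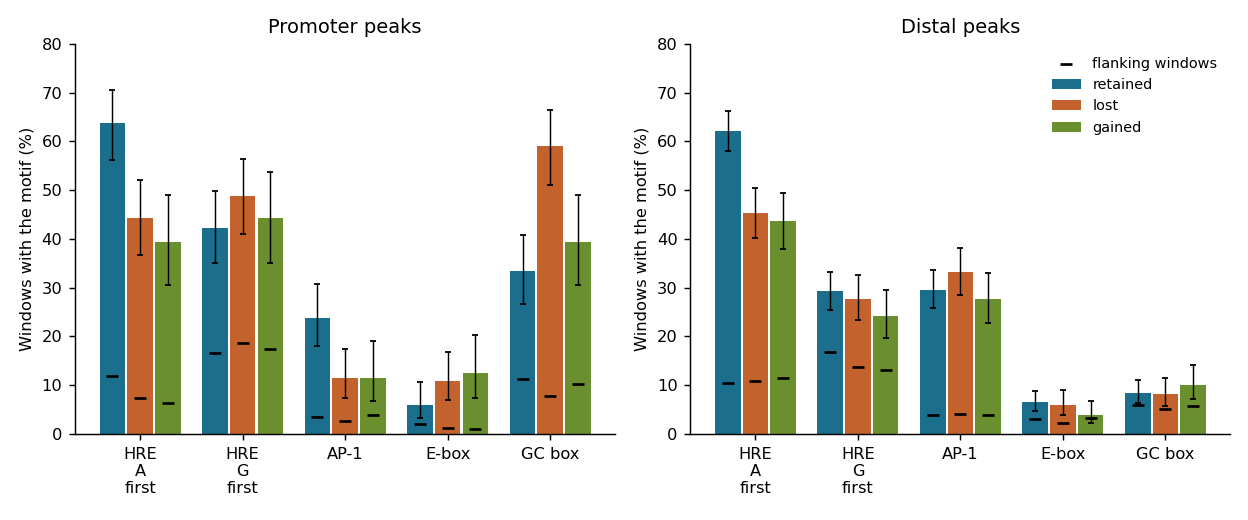
Share of 200-bp summit windows with each motif, in percent, for retained, lost and gained HIF2α peaks at promoters (left) and distal sites (right). Error bars are 95% Wilson intervals and black dashes are the shares in windows 2000 bp to either side; the HRE with A first is highest in retained peaks on both sides, and the GC box reaches 59.0% in lost promoter peaks.

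At promoters, lost peaks more often held the GC box, the GGGCGG site of Sp/KLF factors, and the CCAAT box of NF-Y. The GC box was in 92 of 156 lost (59.0%, 51.1 to 66.4), 56 of 168 retained (33.3%, 26.6 to 40.8) and 41 of 104 gained promoter windows (39.4%, 30.6 to 49.0). Of promoter peaks with a GC box 56 of 148 were retained (37.8%), and of those without one 112 of 176 (63.6%), a difference of -25.8 points (-35.8 to -14.9) that was -18.0 points (-27.4 to -8.60) over 5 groups of rank and -12.3 (-29.1 to 4.89) among peaks with a −log10 p of at least 20 in both lists. At distal sites the box was in 8.35% of retained and 8.22% of lost windows. The median GC content of the promoter windows was 60% in retained, 64.5% in lost and 63% in gained peaks, and its part in the GC box difference was not tested. The CCAAT box was in 25% of retained and 39.1% of lost promoter windows (-14.1 points, -23.9 to -3.94).

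The AP-1 site, TGACTCA or TGAGTCA, the element of FOS and JUN dimers, went the other way at promoters. It was in 40 of 168 retained (23.8%, 18.0 to 30.8) and 11.5% of both lost and gained promoter windows, retained minus lost being 12.3 points (3.95 to 20.4). Distal peaks had it at 29.6% (retained), 33.1% (lost) and 27.7% (gained), with retained minus lost at -3.54 points (-9.84 to 2.66). Distal peaks with an AP-1 site and no HRE core were retained in 39 of 90 cases (43.3%, 33.6 to 53.6), distal peaks with neither in 103 of 187 (55.1%, 47.9 to 62.0), those with a core and no AP-1 site in 268 of 420 (63.8%, 59.1 to 68.3), and those with both in 117 of 183 (63.9%, 56.8 to 70.5). The difference with minus without an AP-1 site was 0.125 points (-8.32 to 8.23) among distal peaks with a core and -11.7 points (-23.7 to 0.799) among those without.

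HIF2α peaks with and without an overlapping shControl BMAL1 peak were retained at shares whose difference had an interval that included 0. At promoters 56 of 109 with a BMAL1 peak were retained (51.4%) and 112 of 215 without one (52.1%), a difference of -0.717 points (-12.1 to 10.6). At distal sites 147 of 227 were retained with a BMAL1 peak (64.8%) and 380 of 653 without (58.2%), a difference of 6.56 points (-0.851 to 13.6). The peaks with BMAL1 include the 58 called in all 4 lists, 25 of them at promoters, which are retained by that definition. This comparison was not repeated without them. Gained peaks had the lowest share with a BMAL1 peak of shControl cells, and lost peaks the lowest share with one of shBMAL1 cells. By the class rule, these are the lines in which each class had no HIF2α call. Whether that accounts for the pattern was not tested. A shControl BMAL1 peak overlapped 203 retained (29.2%, 25.9 to 32.7), 133 lost (26.1%, 22.5 to 30.1) and 63 gained peaks (16.0%, 12.7 to 19.98). The gap lay at distal sites, where 27.9% of retained, 22.7% of lost and 11.1% of gained peaks overlapped one, and gained minus lost was -11.6 points (-17.2 to -5.79), or -11.2 points (-16.8 to -5.42) without the EPAS1 and ARNT peaks. At promoters gained minus lost was -4.17 points (-15.3 to 7.52). The BMAL1 list of shBMAL1 cells is smaller and joins 2 libraries, against 3 for shControl cells. Against it, 65 retained (9.35%, 7.41 to 11.7), 18 lost (3.54%, 2.25 to 5.52) and 33 gained HIF2α peaks (8.397%, 6.04 to 11.6) had an overlapping peak. Retained minus lost was 5.82 points (3.04 to 8.53) and gained minus lost 4.86 points (1.78 to 8.27). At promoters the shares were 16.1%, 7.05% and 21.2%, and at distal sites 7.21%, 1.98% and 3.81%.

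**Figure D4:**
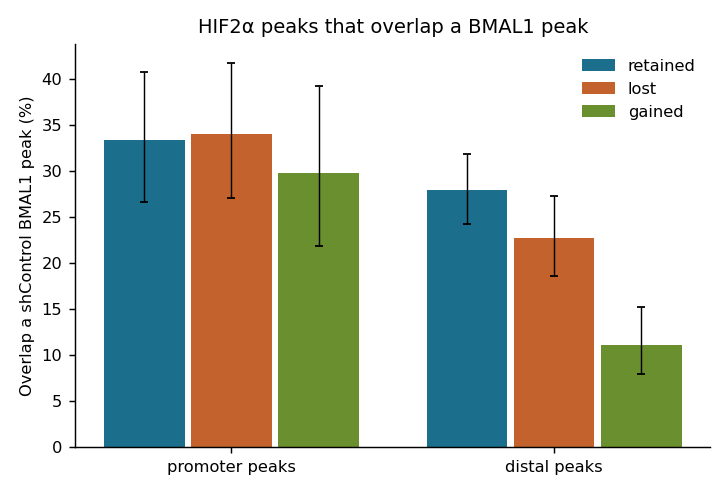
Share of retained, lost and gained HIF2α peaks, in percent, that overlap a BMAL1 peak of shControl cells, at promoters and at distal sites, with 95% Wilson intervals. The classes lie between 29.8% and 34.0% at promoters, and gained distal peaks stand lowest at 11.1%.

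Among retained promoter peaks, the highest ranks outside EPAS1 and ARNT included ALDOA, the glycolytic aldolase (chr16:30076502-30077129, 135 bp upstream of the start), at rank 39 with a fold of 14.9 in shControl and rank 21 with 20.6 in shBMAL1 cells. A start inside SEMA4B, a semaphorin gene, coincided with the non-coding RN7SL346P and ranked 30 in both lists (folds of 20.1 and 20.01). An internal start of ECE1, the endothelin-converting enzyme, went from rank 42 to 130 (16.5 and 11.6). The promoter of CPOX, an enzyme of haem synthesis, went from rank 52 to 27 (12.4 and 24.1). Peaks at the pseudogene MTCO1P45 (rank 22) and in AMY2A (rank 37) also belonged here, and both overlapped a BMAL1 peak in each line.

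Among retained distal peaks the highest-ranking named loci that lacked a BMAL1 peak in one line or both were chosen after the values were seen, because the 5 that ranked highest by the rule, beside FAM168A, EFNA5, FSTL5 and ACTR3C among others, overlapped a BMAL1 peak in both lines. The peak 42879 bp upstream of TGFA, which encodes the EGF receptor ligand TGFα, ranked 28 with a fold of 25.3 in shControl and 15 with 29.8 in shBMAL1 cells (chr2:70823616-70824324). An intronic peak of STX16, a SNARE of vesicle traffic, ranked 34 and 39 (21.4 and 25.7), and a peak 19291 bp upstream of APOH ranked 36 and 34 (20.7 and 23.6). The peak 73686 bp upstream of NDRG1, a hypoxia-inducible gene, ranked 38 and 36 (14.0 and 12.4). These loci kept ranks near the top of both lists.

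The strongest lost promoter peaks stood far lower. PTP4A1, a tyrosine phosphatase, led at rank 253 with a fold of 9.26 (chr6:64282360-64282530). The shared promoter of EXOSC5, a subunit of the RNA exosome, and BCKDHA, of branched-chain amino acid breakdown, followed at rank 264 (11.1). ASPH, an aspartyl hydroxylase, was at rank 280 (7.30), the divergent non-coding ITGB1-DT within ITGB1 at rank 285 (10.2) and LINC01411 at rank 290 (9.58).

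Lost distal peaks reached higher. An intergenic peak whose nearest coding gene was ZNF254 ranked 35 with a fold of 8.80 (chr19:24474666-24474815) and had no HRE core. A coding-exon peak of GABRR2, a GABA receptor subunit, ranked 135 (12.3), and a peak 182924 bp upstream of OXR1, an oxidation resistance gene, ranked 188 (11.8). An intronic peak of BBS9, whose nearest coding start was that of BMPER, ranked 202 (11.1), and an exon of KLF10, a zinc-finger factor induced by TGFβ, ranked 208 (5.97). All but the first had an HRE core.

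For peaks called only in BMAL1-depleted cells, the study states that visual inspection and motif analysis gave no support for widespread HIF2α redistribution. Gained peaks began at rank 108 of the 1089 shBMAL1 peaks. THRB, the thyroid hormone receptor β gene, gained that one, an intronic peak with a fold of 17.9 (chr3:24296213-24296487). CD70, the ligand of CD27 on lymphocytes, gained an intronic peak at rank 177 with a fold of 13.6 (chr19:6601652-6602015), and LYZL1 and BTRC, the latter an F-box protein of a ubiquitin ligase, gained peaks at ranks 193 (11.5) and 209 (4.78). An intronic peak 26990 bp upstream of STK32A ranked 173 (5.52). Gained promoters were led by the pseudogene MTND6P16 at rank 135 (7.97), C1GALT1, a galactosyltransferase of O-glycans, at rank 206 (11.7), HSPA2 at rank 221 (11.3), the antiviral TRIM5 at rank 303 (10.8) and PCGF3-AS1 at rank 333 (5.34).

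By gene, where a peak was given to the nearest protein-coding start and to any protein-coding gene whose body held the summit, 1074 of 20136 genes had a shControl HIF2α peak and 947 a shBMAL1 peak. Of these, 665 had a peak in both lists (3.3% of all genes), 409 only in the shControl list (2.03%) and 282 only in the shBMAL1 list (1.4%). Thus 61.9% of the genes with a shControl peak also had a shBMAL1 peak. The gene lists below can be set beside that share, which takes no account of how many peaks a gene had or how strong they were. A lost peak did not always leave the gene without one: of 534 genes with a lost peak 125 had another peak in shBMAL1 cells, and 90 had both a retained and a lost peak. The genes can lie far from their peaks, as the distances given show.

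The 10 lists of known genes (188 symbols, all found in the annotation) held 84 genes with a HIF2α peak: 61 with a peak in both lists, 15 in the shControl list only and 8 in the shBMAL1 list only. The lists were described by counts, with no test. Their members ranged from one end of the comparison to the other, the glycolysis list having 13 of 14 shControl genes in both lists and the lipid list 2 of 8. The peaks of those lists also differed in strength, as given below.

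**Figure D5:**
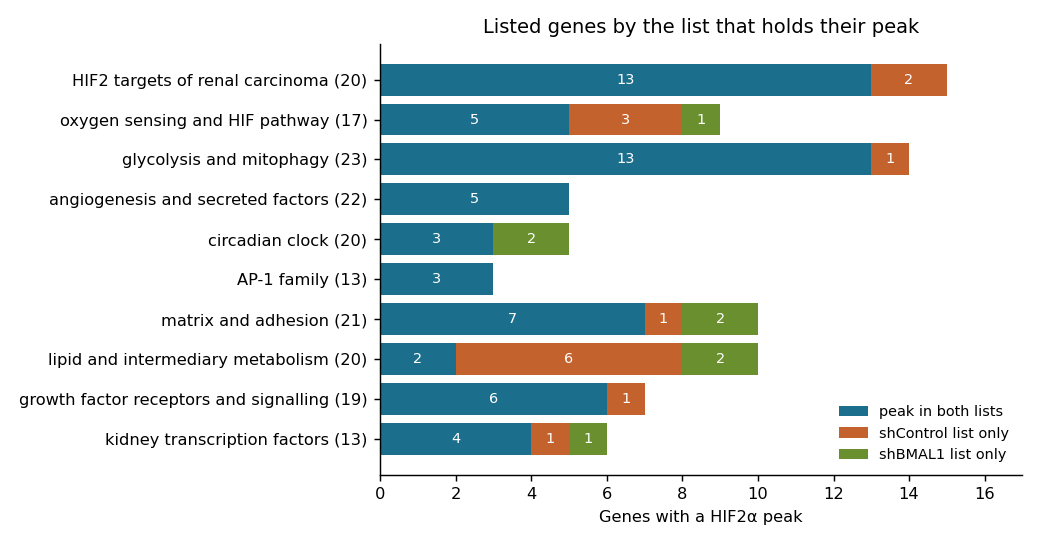
Number of genes of each list with a HIF2α peak in both lists, in the shControl list only and in the shBMAL1 list only, with the size of each list in parentheses. The bars of the HIF2 target and glycolysis lists are mostly the colour of both, and the lipid list has 6 of its 10 genes in the shControl list only.

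Of 20 HIF2 target genes of renal carcinoma, 15 had a shControl peak and 13 of them (86.7%) also a shBMAL1 peak. VEGFA, the angiogenic growth factor, was 1 of the exceptions. Its only peak (chr6:43736921-43737696, 404 bp upstream of the nearest start), with the 2 cores shown above, had a fold of 6.01 and rank 416 in shControl cells and was lost. ITPR1, a calcium channel of the endoplasmic reticulum, lost an intronic peak of rank 873. CCND1, which encodes cyclin D1, had no peak in either list. TGFA kept its strong upstream peak and lost a weak intronic one (rank 990). By peak, this HIF2 target list kept 26 of 36, and CDCP1 is among the 13 only through its gained peak. The genes of the list had strong peaks to begin with, at a median best rank of 149. In the decile of that rank, 111 of 120 of all shControl peaks were retained (92.5%).

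NDRG1 kept all 5 peaks, with the promoter at rank 1061 in shControl and 865 in shBMAL1 cells. The glucose transporter gene SLC2A1 kept all 4, led by an intronic peak of rank 54 in both lists (13.9 and 11.6). EGLN3, the HIF prolyl hydroxylase that HIF itself induces, kept all 3 and gained 1 intronic peak (rank 758), and its strongest, 84785 bp upstream, went from rank 136 to 77 (13.4 and 17.4). MYC had 6 shControl peaks in the region downstream, of which 4 were retained and 2 lost, and a further peak 371383 bp downstream was gained at rank 347. ANGPTL4, an inhibitor of lipoprotein lipase, lost an intronic peak (rank 837) and kept 2, of which the stronger fell from a fold of 13.0 to 3.55. PLIN2, a lipid droplet protein, lost 1 of 2 neighbouring peaks (rank 371) and kept the other (383 and 302).

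NR1D1, a clock repressor gene and another locus displayed in the study, had no HIF2α peak in either list.

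Among 17 oxygen sensing genes 9 had a peak, 5 of them in both lists. The histone demethylase genes KDM3A, KDM4B and KDM4C kept promoter peaks, at ranks 163 and 86 (KDM3A), 58 and 142 (KDM4B) and 1144 and 978 (KDM4C). CITED2, which limits HIF by binding its coactivators, lost a peak of rank 1050, JMJD6 one of rank 1142, and LIMD1, a scaffold of the prolyl hydroxylases and VHL, lost 2 (ranks 661 and 692). The other lost peaks of this list were the 3 of ARNT noted above, at ranks 27, 75 and 152. EGLN1, the main HIF prolyl hydroxylase, gained a promoter peak of rank 1028.

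The glycolysis and mitophagy list kept 21 of its 24 shControl peaks, at a median best rank of 279.5 per gene. In the decile of that rank, 96 of 120 of all shControl peaks were retained (80%). LDHA, lactate dehydrogenase A, kept 3, of which 2 lay at promoters and overlapped a shControl BMAL1 peak. The stronger went from rank 63 to 107 and from a fold of 12.8 to 17.9, and the weaker from rank 1072 to 486 and from a fold of 4.82 to 8.81. PGK1 (ranks 101 and 224), ENO1 (221 and 244), PFKFB4 (133 and 216) and GPI (543 and 155) kept promoter peaks, and PFKP kept all 4. The 3 lost peaks were at the PDK1 promoter (rank 803, fold of 5.80), PDK1 being the kinase that inhibits pyruvate dehydrogenase, in an intron of HK2 (rank 301, 9.56) and at a PKM promoter (rank 1073). PKM gained a peak at another of its starts (rank 1011), and PFKFB3 gained an intronic one (rank 468).

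The lipid and intermediary metabolism list kept 2 of its 8 shControl peaks. HILPDA, a hypoxia-inducible inhibitor of triglyceride lipolysis, kept its promoter peak (rank 168, fold of 9.51, then 274 and 6.39), and SCD kept a peak 26848 bp away (ranks 950 and 924). The 6 lost peaks included those of ACLY, which makes cytosolic acetyl-CoA (rank 712), PYGL (810) and GBE1 (1201) of glycogen metabolism, and LPIN1 (866). ACACA, acetyl-CoA carboxylase, gained a peak 20623 bp from its start at rank 321 with a fold of 10.97, and GLUL gained one at rank 1019. The genes of this list had weak peaks to begin with, at a median best rank of 838. In the decile of that rank, 40 of 121 of all shControl peaks were retained (33.1%).

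The lists of angiogenic and secreted factors and of AP-1 genes had no gene in one list only. ADM, PDGFB, STC2, CCN1 and NRP1 kept 5 of 6 peaks, with PDGFB at ranks 102 and 110 and STC2 at 98 and 89. FOSL2, JUN and BATF3 kept 5 of 6, the intronic FOSL2 peak going from rank 77 to 56 (12.5 and 16.8) and the JUN promoter from 160 to 313.

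Of 20 clock genes 5 had a HIF2α peak. BHLHE40, a repressor in the clock that is induced by hypoxia, kept 4 of 6 peaks, its promoter going from rank 94 to 235 (11.3 and 7.86). The PER2 promoter kept its peak (262 and 311) and so did the PER1 promoter (1180 and 826), all 3 promoters overlapping a shControl BMAL1 peak. PER1 lost a second peak of rank 923. TEF (rank 450) and NFIL3 (rank 942), both bZIP factors of clock output, gained distal peaks.

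In the matrix and adhesion list 7 genes had peaks in both lists, among them the collagen-modifying P4HA1 (364 and 238), P4HA2 (91 and 99) and PLOD2 (112 and 258) and the collagen gene COL4A1 (130 and 124). ITGA5 lost its peak (rank 535), while ITGA3 (937) and CD44 (959) gained 1 each. Of the growth factor receptor list, EGFR kept 3 peaks, with the strongest going from rank 50 to 165 (14.9 and 9.42), and gained 2 weak ones. MET kept 1 and gained 2, including its promoter (rank 999), which overlapped a BMAL1 peak in each line. SMAD7, an inhibitor of TGFβ signalling, lost both of its peaks (ranks 446 and 606). Of the kidney transcription factors, WT1 (292 and 174), PAX8 (549 and 925), EMX2 and ZNF395 kept peaks and PAX2 gained 1 (rank 509).

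Retention also varied between chromosomes, all of which were looked at. On chromosome 19, 13 of 42 shControl peaks were retained (31.0%, 19.1 to 46.0), against 682 of 1162 elsewhere, a difference of -27.7 points (-39.9 to -12.4), and 22 of its 35 shBMAL1 peaks were gained (62.9%, 46.3 to 76.8). On chromosome 21, 3 of 20 were retained (15%, 5.24 to 36.0). Promoter peaks made up 15 of the 42 on chromosome 19, 9.12 points above the other chromosomes (-3.87 to 24.4). Chromosomes 9 (39 of 56, 69.6%) and 12 (23 of 30, 76.7%) were among those with the highest retained shares.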

How the data were processed

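The authors aligned paired reads to hg19 and, for the yeast spike-in, sacCer3 with Bowtie2 (2.5.3), filtered them and removed duplicates with SAMtools (1.6) and sambamba, called peaks with MACS2 (2.2.9.1) on a p-value threshold and removed blacklisted regions with bedtools (2.31.1). They deposited 1 list per group, with peak coordinates, summit, fold enrichment (a ratio to the local background) and −log10 p and −log10 q values per peak. Reads per library are not in these lists, so the depth behind a peak is unknown here. The lists hold no spike-in scaling, so folds were not compared between lines by a test. Whether IgG served as control is not given in the sources used here.

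Peaks were ranked on column 8 (−log10 p), matched by overlap of at least 1 bp, and placed with GENCODE v44lift37, whose GRCh37 coordinates are those of hg19. Motifs were sought on both strands in 200 bp centred on the summit. The summit was that of the shControl list for retained and lost peaks, and of the shBMAL1 list for gained ones. Shares have 95% Wilson and differences 95% Newcombe intervals, and of 120 differences computed, 44 had an interval without 0. Differences within 5 groups of rank are instead means over the groups with symmetric 95% intervals. For promoter minus distal, that mean was weighted by the numbers of peaks in each group. Overlap and interval functions were tested on simulated data (Python 3.11.15, pandas 2.3.3, pysam 0.24.0). Named peaks were the 5 highest-ranking of each class and place outside EPAS1 and ARNT, 1 per nearest gene (chromosome Y peaks were counted but not named), the listed genes with a peak, and the displayed loci. The members and lists were chosen with earlier results of these data known. Some genes of the lists are counted but not reported by name here.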

Additional observations from a re-analysis of the deposited data

How the results depend on the processing

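Of 119 alternatives to 17 results, 38 were added after seeing the data; 91 left the value within its reported interval (gene counts within 1.5 times), 24 moved it beyond and 4 turned the sign of a difference whose interval excluded 0. Of the 91 and 24, 8 also turned a sign, of differences whose interval included 0. Keeping peaks with a −log10 p of at least 20 in both lists turned the promoter minus distal difference in retention to 2.14 points, the gained minus retained HRE share to 6.21 and that of the ACGTG core to 1.95. It moved the gained share to 27.6%, the log2 fold difference to 0.20, the retained minus lost share of the HRE to 0.667, of ACGTG to 1.31 and of AP-1 to -8.23, the gained minus retained AP-1 share to 3.46, the GC box difference in promoter retention to -12.3, and the genes to 334 in both lists, 221 in shControl and 108 in shBMAL1 cells only. With that threshold on the shControl list alone, 81.2% were retained, promoter minus distal turned to 0.653, and retained minus lost was 0.11 in log2 fold, 2.42 points for the HRE and -6.33 (-13.7 to -1.18) for the E-box. The first 1000 peaks of each list gave 61.7% retained and 0.30 in log2 fold. Overlap of 50% of both peaks gave 49.7% retained and 45.1% gained. Retained minus lost AP-1 shares were -3.54 at distal and 12.3 at promoter peaks. For ACGTG, a 100-bp window gave 8.95 and -9.93 points, and rank groups 9.30. Starts within 50 kb gave 403 genes in both lists. The cause of these changes was not tested. Leaving out the EPAS1 and ARNT peaks, or those with BMAL1 in both lines, turned no sign and moved no result past its interval, but the gained minus retained AP-1 share went from -4.79 (-10.02 to 0.685) to -5.71 (-10.995 to -0.185) and -6.17 (-11.7 to -0.393). The promoter share of gained minus lost peaks went from -4.19 (-10.02 to 1.79) to -6.33 (-12.1 to -0.323) without the latter peaks, to -6.50 (-12.3 to -0.55) with promoters of 2500 bp, and to 1.20 under the stricter threshold.

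No paired analysis was possible because each list joins its 3 libraries without replicate numbers, and no library was left out for the same reason. Fewer peaks pass the stricter threshold, so those differences have wider intervals. With that threshold on both lists, a peak whose partner fell below it also counted as lost or gained. Depth limits the calls: an uncalled site is not shown to be unbound.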
